A study of Homo sapiens with 7 samples.

Results

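CDKN1A (the cyclin-dependent kinase inhibitor p21) and 8 other well-known targets of the transcription factor p53 were followed through 48 h of XMD892 in cells of H1, an established human embryonic stem cell line. The genes, CDKN1A, MDM2, GDF15, FAS, TP53I3, SESN1, ZMAT3, RRM2B and CCNG1, were taken by name, and all 9 stood among the 19775 genes listed. XMD892 inhibits the kinase ERK5, which the title of the series names. The wild-type cells grew in E8, a defined medium holding FGF2 and TGFβ. The 4 groups were E8 alone harvested at 48 h (2 libraries) and E8 with 1 µM XMD892 for 12 h (1 library), 24 h (2 libraries) or 48 h (2 libraries). Poly(A) RNA was read as paired ends. E8 alone has no 12 h or 24 h sample, so at those times treatment and time in culture cannot be told apart.

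As background, p53 is held at a low level by MDM2, an E3 ubiquitin ligase that marks it for degradation and that is itself a p53 target, which closes a feedback loop. When DNA damage or other stress frees p53 from MDM2, it binds DNA as a tetramer at paired half-sites and turns on genes for cell cycle arrest, repair, redox control and cell death. Human embryonic stem cells keep CDKN1A low and cycle with a short G1 phase.

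In E8 the 9 genes covered a wide range. Per kilobase of annotated exon, the mean normalised read count was 2162 for CCNG1, 275 for RRM2B, 109 for TP53I3, 96.2 for MDM2, 82.9 for SESN1, 55.8 for CDKN1A, 31.3 for ZMAT3, 12.6 for GDF15 and 2.72 for FAS. The libraries of TP53I3 and MDM2 overlapped on this scale, as did those of MDM2 and SESN1; the other neighbours in the order did not. By 48 h of XMD892 CDKN1A was at 19.1 and 20.8 per kilobase in its libraries, and ZMAT3, next in the order, overlapped it at 18.8 and 20.4. TP53I3 then stood above RRM2B, with means of 195 against 168 per kilobase.

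The start regions of these genes are shown because the comparison is about p53 targets, whose binding sites can lie at or far from a start. The sequences are from RefSeq on GRCh38.p14, in the 250 bases before each start, and were available for 8 of the 9 genes (17 windows), RRM2B being the exception. A full p53 consensus site was scored as 2 half-sites with at most 1 mismatch each, the core C and G of each intact, and 0 to 13 bases between them, on both strands. One such site was found, at MDM2, in the windows of 2 of its 4 starts (94 and 101 bases before them), with no bases between the half-sites and 2 mismatches in all. Of all 35116 windows of this length 1.57% held a full site, and 0.14% held one with no bases between the half-sites. A single half-site without mismatch, which 5.57% of all windows hold, was found at SESN1 and FAS. In each it was in the window of only 1 of several starts, 49 and 122 bases before that start. Like the MDM2 site, both lie inside the annotated gene. All 30 bases given for FAS are annotated as untranslated region. The capitals mark the full site in the MDM2 sequence, which is chr12:68808913-68808952 on the + strand, and the half-site in SESN1 (chr6:109009018-109009047, - strand) and FAS (chr10:88991299-88991328, + strand).
MDM2: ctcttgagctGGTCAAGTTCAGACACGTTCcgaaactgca
SESN1: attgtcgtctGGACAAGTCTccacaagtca
FAS: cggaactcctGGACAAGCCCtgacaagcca

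For CDKN1A the stretch from 250 to 56 bases before the start is given, chr6:36678464-36678657 on the + strand. The capitals mark GC boxes (GGGCGG, searched on both strands), the letters that the factor SP1 is known to bind, which 42.6% of all windows hold.
CDKN1A: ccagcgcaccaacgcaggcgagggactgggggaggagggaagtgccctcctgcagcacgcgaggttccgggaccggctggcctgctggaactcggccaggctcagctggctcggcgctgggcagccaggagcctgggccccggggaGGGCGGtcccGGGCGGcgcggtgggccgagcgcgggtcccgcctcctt
No p53 site was found in this window, which says only that these letters are not in it. Matches describe the sequence and were not tied to binding in these cells.

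Values below are normalised read counts, and changes are differences of group means on the log2(value + 1) scale, which understates the change of low genes. The 16351 genes whose mean reached 10 were tested together with limma, and a call means a p under 0.05 after Benjamini-Hochberg adjustment over all of them. Of the 9 genes 8 were tested; FAS, with a mean under 10, was not. No label states whether replicates came from different cultures; the p-values then reflect only how far these samples spread. The listed genes carried 18528689 to 24148186 reads per library. Across genes, the difference between replicates followed transcript GC content in E8 (Spearman correlation -0.64, a description only) and much less at 24 h (-0.00) and 48 h (0.21). All 12 markers of human embryonic stem cells were expressed (3 of them called lower at 48 h), with summed values of 209492 to 235860 in E8 and 199362 to 217491 at 48 h. The 5 listed mesoderm markers summed to 2809 to 3050 in E8 and 1053 to 1342 at 48 h (0 called higher and 2 lower). The 6 listed trophoblast and amnion markers summed to 695 to 750 in E8 and 1087 at 12 h. Their sums were 444 to 503 at 24 h and 418 to 441 at 48 h, where 1 was called higher and 2 lower. Of these lists, 3 mesoderm and 4 trophoblast and amnion markers had a mean of 10 or more. The 5 listed neuroectoderm markers gave 2 higher and 2 lower at 48 h, with sums of 1177 to 1187 in E8 and 976 to 1029 at 48 h. Of the 2 listed fibroblast markers 1 was lower. No endoderm or haematopoietic marker was called, but only 1 of each type had a mean of 10 or more. The part of these markers in the results was not tested. In bulk RNA, fewer cells carrying a transcript and less transcript per cell cannot be told apart.

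After 48 h of XMD892, 6 of the 8 tested p53 targets differed from E8, where 11.5% of all tested genes did. The genes and the pathway lists below were chosen with earlier results of these data known. Their shares and medians beside those of all tested genes are therefore descriptions only. CDKN1A, MDM2, GDF15, ZMAT3 and RRM2B fell (5 of 8, against 6.45% of all tested genes lower), TP53I3 rose (1 of 8, against 5.08% higher), and SESN1 and CCNG1 did not pass. The median log2 change over the 8 was -0.65, beside 0.02 over all tested genes. For each of the 6 that passed, no 48 h library overlapped an E8 library. With 2 libraries a group, genes that are not called can separate too. At 24 h MDM2, GDF15, SESN1 and ZMAT3 did not overlap E8 and were not called. The share of separated genes over all tested genes was not counted. Of the 6, CDKN1A was the one whose fall was called in each fit that left out a library of the groups compared. At 24 h 2 of the 8 were called, TP53I3 higher and RRM2B lower, where 16.2% of all tested genes were called (8.66% higher and 7.56% lower). At 12 h 1 of the 8 was called, TP53I3 higher and none lower, where 7.46% of all tested genes were called (2.56% higher and 4.89% lower). The 6 that did not pass at 24 h lay between -0.76 (GDF15) and 0.23 (CCNG1), and the 7 at 12 h between -0.44 (RRM2B) and 0.66 (CDKN1A). The 3 comparisons with E8 share the same E8 libraries.

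**Figure D1:**
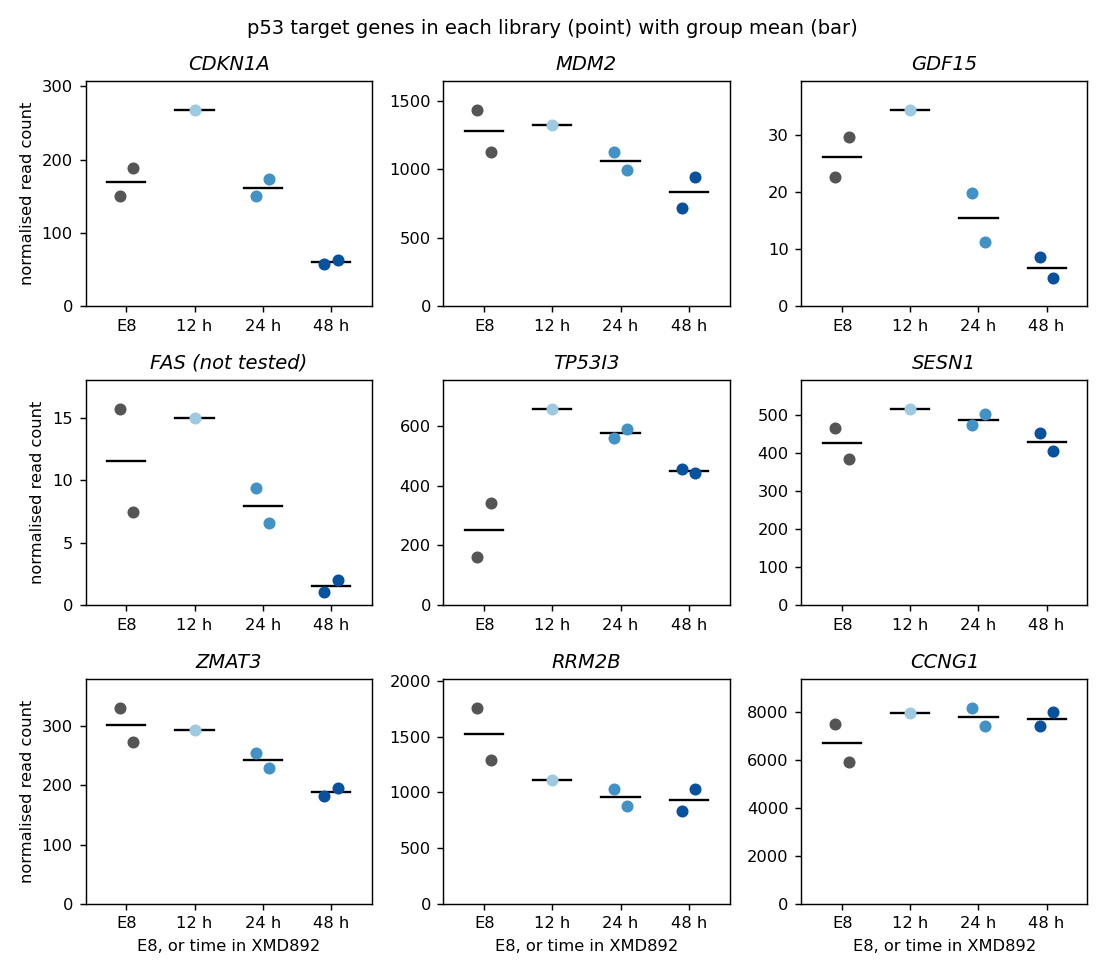
Normalised read count (y axis, linear, from 0) of each of the 9 p53 target genes in each library (points) with the group mean (bars), in E8 and after 12, 24 and 48 h of XMD892 (x axis). The CDKN1A points at 48 h (58.3 and 63.5) lie below all others, and the TP53I3 points in XMD892 lie above both E8 points.

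CDKN1A binds and inhibits cyclin-dependent kinases and so arrests the cell cycle in G1. It lies at chr6:36676460-36687339 on the + strand in GENCODE 29 (GRCh38). Its value was 151 and 189 in E8, 267 at 12 h, 150.0 and 174 after 24 h, and 58.3 and 63.5 after 48 h. The single 12 h library was the highest of the 7, the 24 h libraries lay close to those of E8, 1 of them just below, and both 48 h libraries were the lowest, with no overlap with any other group. At 48 h CDKN1A had fallen by 1.46 on the log2 scale against E8 (SE 0.22, limma adjusted p = 0.00013), a 2.79-fold lower group mean. The fall lay between 24 h and 48 h, where it was 1.39 lower (SE 0.22, limma adjusted p = 0.0012), 2.66-fold. Of the 8 genes only CDKN1A passed between 24 h and 48 h, where 1.2% of all tested genes were called and 0.856% were lower. At 12 h the difference from E8 was 0.66 (SE 0.27, limma adjusted p = 0.14), which did not pass.

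Leaving out either library of either group kept the 48 h fall between -1.62 and -1.30, with limma adjusted p no higher than 0.0038. Between 48 h and 24 h the same fits gave -1.50 to -1.29, with limma adjusted p of at most 0.03. The E8 libraries differed by -0.32 on the log2 scale (replicate 1 minus replicate 2), beside a median of -0.31 over the 1937 genes of like GC content (58.1% ± 2). CDKN1A shares 146 exon bases with DINOL on the opposite strand, and the strand setting of the counting is not given in the sources used here.

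CCNG1 (cyclin G1) acts in p53 feedback and recruits a phosphatase to MDM2. Its value was 7498 and 5892 in E8, 7967 at 12 h, 8165 and 7392 after 24 h, and 7421 and 8015 after 48 h. It had the highest level per kilobase of the 9 genes in every group, and the E8 range overlapped the 24 h and 48 h ranges. The 48 h difference was 0.21 (SE 0.15, limma adjusted p = 0.38) and the 24 h difference 0.23 (limma adjusted p = 0.32), neither of which passed. The 48 h value was 0.39 without E8 replicate 1 (limma adjusted p = 0.055) and 0.04 without E8 replicate 2 (limma adjusted p = 0.86). After a correction of each library for GC content, CCNG1 was called higher at 48 h (0.35, limma adjusted p = 0.021) and at 24 h (0.41, limma adjusted p = 0.009). The corrected 48 h call was lost without E8 replicate 2 (0.31, limma adjusted p = 0.071), while the corrected 24 h call was kept (0.36, limma adjusted p = 0.033). Uncorrected, at 24 h it was also called without E8 replicate 1 (0.40, limma adjusted p = 0.046).

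MDM2 lies at chr12:68808176-68850686 on the + strand. Its value was 1429 and 1126 in E8, 1324 at 12 h, 1125 and 996 after 24 h, and 715 and 946 after 48 h. The values at 48 h were the lowest and did not overlap E8, and both 24 h libraries also lay below the lower E8 library. At 48 h MDM2 had fallen by 0.62 (SE 0.17, limma adjusted p = 0.019), 1.54-fold. This call was lost without E8 replicate 1 (-0.45, limma adjusted p = 0.065) and without 48 h replicate 1 (-0.42, limma adjusted p = 0.31). At 24 h the difference of -0.26 (limma adjusted p = 0.32) passed only without E8 replicate 2 (-0.43, limma adjusted p = 0.037). Exons of MDM2 share 439 bases with a processed pseudogene on the same strand, so some reads could be assigned to either. On opposite strands its exons also overlap CPM (133 bases), as those of FAS overlap ACTA2 (380 bases), those of TP53I3 FAM228B (80 bases) and those of SESN1 AL390208.1 (363 bases).

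GDF15 encodes a secreted stress cytokine of the TGFβ superfamily. Its value was 22.7 and 29.7 in E8, 34.4 at 12 h, 19.8 and 11.2 after 24 h, and 8.64 and 4.96 after 48 h. The 48 h libraries were the lowest and the 24 h libraries lay between them and E8. At 48 h it had fallen by 1.83 (SE 0.50, limma adjusted p = 0.02), a 3.86-fold lower mean. The call was lost without E8 replicate 2 (-1.64, limma adjusted p = 0.062) and without 48 h replicate 2 (-1.49, limma adjusted p = 0.14), and with edgeR on 6 libraries (adjusted p = 0.19).

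FAS, the death receptor at the cell surface, was near the floor. Its value was 15.7 and 7.44 in E8, 15.0 at 12 h, 9.37 and 6.55 after 24 h, and 1.08 and 1.98 after 48 h. The 48 h libraries lay below every other library, but the gene was not tested and no fold change is given.

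TP53I3 (PIG3) encodes an NADPH-dependent quinone reductase that takes part in oxidative stress. It lies at chr2:24077433-24085861 on the - strand. Its value was 159.8 and 343 in E8, 657 at 12 h, 560.3 and 591 after 24 h, and 456 and 444 after 48 h. Every XMD892 library lay above both E8 libraries, but the E8 libraries differed by -1.10 on the log2 scale (replicate 1 minus replicate 2), beside a median of -0.32 over the 1943 genes of like GC content (58.4% ± 2). TP53I3 was higher by 1.48 at 12 h (SE 0.29, limma adjusted p = 0.0026, 2.61-fold), by 1.29 at 24 h (limma adjusted p = 0.00097, 2.29-fold) and by 0.94 at 48 h (SE 0.24, limma adjusted p = 0.012, 1.79-fold).

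The call of TP53I3 at 48 h was lost in 3 of the 4 fits that left out a library of the groups compared. The value was 0.39 without E8 replicate 1 (limma adjusted p = 0.15), 1.49 without E8 replicate 2 (limma adjusted p = 1.1e-07), 0.92 without 48 h replicate 1 (limma adjusted p = 0.096) and 0.96 without 48 h replicate 2 (limma adjusted p = 0.063). The 24 h and 12 h calls were kept in all such fits, with values of 0.75 to 1.84 and 0.94 to 2.03. DESeq2 on the counts of 6 libraries, without 48 h replicate 2, did not call TP53I3 at 24 h (adjusted p = 0.13) or 12 h (adjusted p = 0.24). On the same 6 libraries edgeR called it at 24 h (1.18, adjusted p = 0.0015) and at 12 h (1.38, adjusted p = 0.0027).

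SESN1 (sestrin 1) helps restrain mTORC1 under stress. Its value was 464 and 384 in E8, 514 at 12 h, 472 and 501 after 24 h, and 452 and 406 after 48 h. The 48 h libraries lay inside the E8 range, with a difference of 0.02 (SE 0.17, limma adjusted p = 0.96). ZMAT3, a zinc finger protein that binds RNA and takes part in splicing, was 331 and 273 in E8, 294 at 12 h, 254 and 230.1 after 24 h, and 181 and 196 after 48 h. At 48 h ZMAT3 had fallen by 0.67 (SE 0.19, limma adjusted p = 0.025), 1.60-fold, and no 48 h library overlapped E8. Its call was lost without E8 replicate 1 (limma adjusted p = 0.11), 48 h replicate 1 (limma adjusted p = 0.19) or 48 h replicate 2 (limma adjusted p = 0.093), and on 6 libraries with edgeR (adjusted p = 0.1) and DESeq2 (adjusted p = 0.2).

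RRM2B is the p53-inducible small subunit of ribonucleotide reductase, which supplies deoxynucleotides for repair. Its value was 1758 and 1289.8 in E8, 1113 at 12 h, 1029 and 879 after 24 h, and 835 and 1030.4 after 48 h. All 5 XMD892 libraries lay below both E8 libraries, and the 24 h and 48 h libraries overlapped. RRM2B had fallen by 0.66 at 24 h (SE 0.17, limma adjusted p = 0.012, 1.60-fold) and by 0.70 at 48 h (SE 0.17, limma adjusted p = 0.01, 1.63-fold). The 48 h call was lost without 48 h replicate 1 (-0.55, limma adjusted p = 0.19). The 24 h call was lost without E8 replicate 1 (-0.44, limma adjusted p = 0.066) or 24 h replicate 2 (-0.55, limma adjusted p = 0.11). At 12 h the difference of -0.44 (limma adjusted p = 0.23) passed without E8 replicate 2 (-0.66, limma adjusted p = 0.0092).

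**Figure D2:**
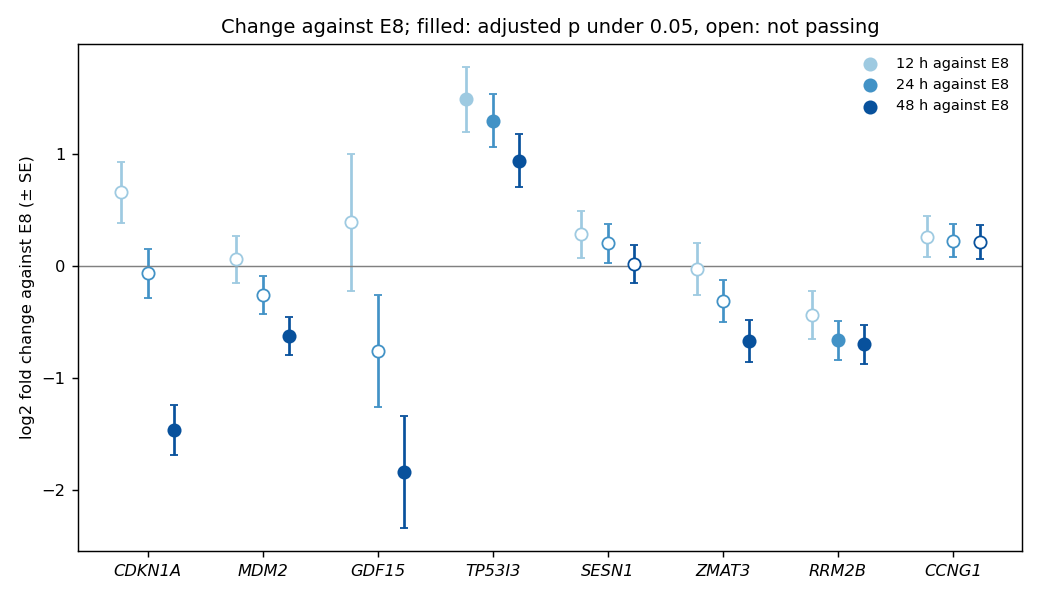
Log2 fold change against E8 (y axis, error bars ± SE) of the 8 tested genes after 12, 24 and 48 h of XMD892 (3 shades). Filled points passed at a limma adjusted p under 0.05 and open points did not; TP53I3 is filled at each time, and CDKN1A is filled only at 48 h.

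**Figure D3:**
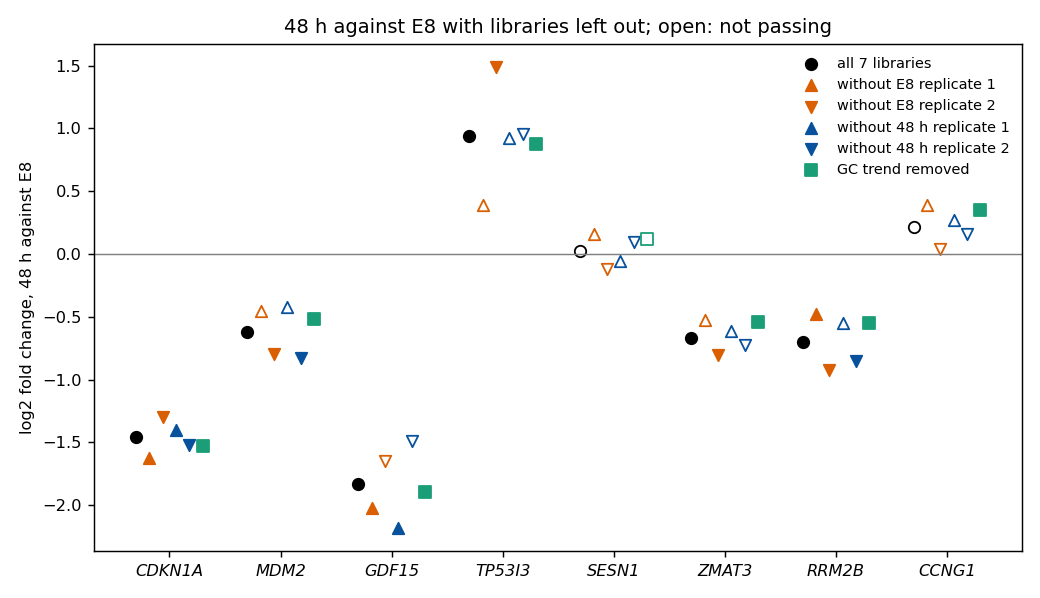
Log2 fold change at 48 h against E8 (y axis) of the 8 tested genes with all 7 libraries (circle), with 1 library left out (triangles) and with the GC trend removed (square); open symbols did not pass. CDKN1A stays between -1.62 and -1.30 with a library left out, while TP53I3 spreads from 0.39 to 1.49.

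Between 12 h and 24 h none of the 8 was called with limma (1 at an unadjusted p under 0.05, CDKN1A), where limma called 0.391% of all tested genes. In this comparison edgeR and DESeq2 on 6 libraries called none of the 8 either, and their own shares are not given. CDKN1A differed by -0.72 there (SE 0.27, limma adjusted p = 0.31), with 1 library at 12 h.

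MDM4, the partner of MDM2 that blocks p53 activity, differed by -0.30 at 48 h (limma adjusted p = 0.35). Without 1 library MDM4 was at -0.08 (E8 replicate 1), -0.52 (E8 replicate 2, called with a limma adjusted p = 0.036), 0.08 (48 h replicate 1) or -0.68 (48 h replicate 2). PPM1D, the phosphatase that turns p53 signalling off, differed by -0.01 (limma adjusted p = 0.99). Of 25 tested genes of the p53 family and its upstream regulators, 1 rose at 48 h (PPP1R13B, an ASPP family protein that binds p53, by 0.54), 1 fell (TRIM24, a ubiquitin ligase for p53, by 0.85, with an SE of 0.15) and 23 did not pass. The shares were 4% higher and 4% lower, beside 5.08% and 6.45% of all tested genes. The median of the 25 was -0.17. The TRIM24 call was kept in all 4 fits without a library of these groups, and the PPP1R13B call was lost without 48 h replicate 1 (limma adjusted p = 0.24) or 48 h replicate 2 (limma adjusted p = 0.16).

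Other p53 targets were called in both directions. Over 54 tested targets in 3 lists, 3 rose (5.56%, beside 5.08% of all tested genes), 9 fell (16.7%, beside 6.45%) and 42 did not pass at 48 h. Their median was 0.00, beside 0.02 over all tested genes. At 24 h 3 rose (5.56%, beside 8.66% of all tested genes) and 4 fell (7.41%, beside 7.56%). At 12 h 1 rose (1.85%, beside 2.56%) and 3 fell (5.56%, beside 4.89%). In the growth arrest and feedback list (17 tested) 3 fell at 48 h (17.6%, beside 6.45% of all tested genes) and none rose. They were SFN (14-3-3 sigma, which holds cyclin B1 in the cytoplasm), PHLDA3 (a repressor of AKT) and PLK2 (a polo-like kinase).

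SFN was 149 and 206 in E8, 131 at 12 h, 205 and 149 after 24 h, and 81.0 and 72.4 after 48 h. It had fallen by 1.18 at 48 h (SE 0.24, limma adjusted p = 0.0021), with values of -1.41 to -0.95 in the 4 fits without a library of those groups. DESeq2 on 6 libraries did not call SFN, PHLDA3 or PLK2 at 48 h. PHLDA3 was 187 and 381 in E8, 366 at 12 h, 297 and 336 after 24 h, and 135 and 139 after 48 h. Both genes were lowest at 48 h, with no overlap with another group, and PHLDA3 was called in 1 of the 4 such fits (-1.47 to -0.45, beside -0.96 with all libraries). The one fit that called it was without E8 replicate 1. PLK2 had fallen by 0.74 and was called only in the fit without E8 replicate 2.

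In the cell death list (17 tested) TNFRSF10D, a decoy receptor for TRAIL, rose by 0.83 and TNFRSF10C, another decoy receptor, and PMAIP1 fell at 48 h. That was 5.88% higher and 11.8% lower, beside 5.08% and 6.45% of all tested genes. TNFRSF10C was called in 0 of the 4 fits without a library of those groups, and TNFRSF10D in 3, being lost without 48 h replicate 2 (limma adjusted p = 0.13). PMAIP1 (NOXA), a BH3-only protein that promotes apoptosis, was 4412 and 4161 in E8, 1631 at 12 h, 2160 and 2026 after 24 h, and 2830 and 3030 after 48 h. The 12 h library was lowest and the values at 48 h lay between those at 24 h and in E8. PMAIP1 had fallen by 1.39 at 12 h (limma adjusted p = 2.1e-05), by 1.03 at 24 h (limma adjusted p = 4.7e-05) and by 0.55 at 48 h (limma adjusted p = 0.013), the last of which was lost without either 48 h library (limma adjusted p = 0.16 and 0.072).

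Among the 20 tested targets for repair, redox control and metabolism, 2 rose (ALDH4A1, a proline pathway enzyme, by 0.77, and CPT1C) and 4 fell (TRIM22, DRAM1, SAT1 and DDB2). These were 10% higher and 20% lower at 48 h, beside 5.08% and 6.45% of all tested genes. TRIM22, an antiviral ubiquitin ligase, fell by 1.67 (limma adjusted p = 2e-05), DRAM1, a lysosomal regulator of autophagy, by 1.41 (limma adjusted p = 0.0023), and SAT1, which acetylates polyamines, by 0.84 (limma adjusted p = 0.0016). In the 4 fits that left out a library TRIM22 lay between -1.79 and -1.54, DRAM1 between -1.42 and -1.40 and SAT1 between -0.92 and -0.75. DESeq2 on 6 libraries did not keep all 3 calls. The ALDH4A1 call was lost without E8 replicate 1 (0.44, limma adjusted p = 0.066) or 48 h replicate 1 (0.69, limma adjusted p = 0.12).

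**Figure D4:**
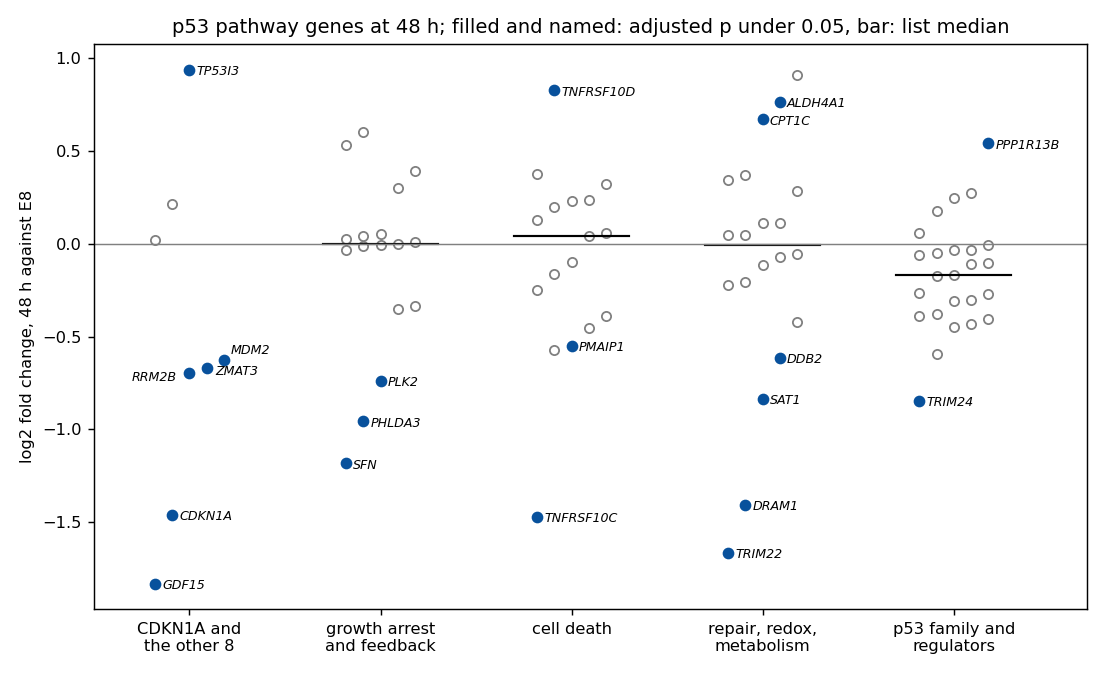
Log2 fold change at 48 h against E8 (y axis) of each tested gene in 5 lists (columns), with genes that passed filled and named and the median of each of the other 4 lists as a bar. The CDKN1A column has 5 named genes below 0, and the other 3 target lists have medians near 0.

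The partners and paralogs of the 9 genes (20 tested) gave 2 higher and 2 lower at 48 h. That was 10% each way, beside 5.08% higher and 6.45% lower of all tested genes. CDKN1C (p57), a paralog of CDKN1A, rose by 0.81, and CDK4, a kinase that CDKN1A binds, by 0.69. CDK6 fell by 0.72, and CFLAR, an inhibitor of death receptor signalling, by 0.89. Each of these 4 calls was lost in 1 of the 4 fits, those of CDK4 and CDK6 without 48 h replicate 1 and those of CDKN1C and CFLAR without 48 h replicate 2. Of 20 cell cycle genes repressed through CDKN1A and the DREAM complex, 1 rose at 48 h (5%, beside 5.08% of all tested genes). None fell (beside 6.45%) and 19 did not pass. The riser was CKS1B, by 0.46, called only without E8 replicate 2 among the 4 fits.

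Of the 12 tested integrated stress response genes, of which GDF15 is also a known target, 2 rose (DDIT4 by 1.09 and PPP1R15A) and 3 fell at 48 h (SLC7A11 by 2.63, CHAC1 by 1.65 and TRIB3 by 0.96, the last lost without 48 h replicate 1). The shares of this list were 16.7% higher and 25% lower, beside 5.08% and 6.45% of all tested genes. DDIT4, an inhibitor of mTORC1, was 383 and 439 in E8, 96.6 at 12 h, 151 and 121 after 24 h, and 966 and 789 after 48 h. It had fallen by 2.07 at 12 h (limma adjusted p = 5.8e-06) and by 1.60 at 24 h (limma adjusted p = 9.7e-06) before it was higher at 48 h. Among 18 tested transcription factors known to act on CDKN1A, EGR1 rose by 1.48 and KLF4, TFAP2C and SMAD3 fell by 1.22, 0.76 and 0.58 at 48 h. That was 5.56% higher and 16.7% lower, beside 5.08% and 6.45% of all tested genes. In the fits without a library of these groups EGR1 stayed between 1.42 and 1.53 and KLF4 between -1.37 and -1.08. TFAP2C lay between -0.83 and -0.70 and SMAD3 between -0.65 and -0.51, and their calls were not kept in all of these fits. DESeq2 on 6 libraries called none of these genes, EGR1 and KLF4 included. Of 13 mitochondrially encoded genes, 1 rose at 48 h (7.69%, beside 5.08% of all tested genes) and none fell (beside 6.45%). It was MT-ATP8, whose coding sequence overlaps that of MT-ATP6, and it rose by 1.60.

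The genes most like CDKN1A were those with the smallest root mean square difference from its 3 log2 changes against E8, over 7 libraries, among 12715 genes with a mean of 50 or more. They were NTNG1 (0.21), DUSP8 (0.25), MT1G (0.27), PARM1 (0.29) and OLIG3 (0.30). NTNG1 was 70.7 and 80.1 in E8, 115 at 12 h, 57.3 and 58.9 after 24 h, and 31.3 and 30.7 after 48 h. Of the p53 targets with a mean of 50 or more, the nearest were PHLDA3 (rank 12), PLK2 (rank 38) and DRAM1 (rank 58). MDM2 (rank 123), ZMAT3 (rank 149) and SFN (rank 177) came next, and TP53I3 was rank 12545. GDF15 and FAS, with lower means, were not ranked.

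**Figure D5:**
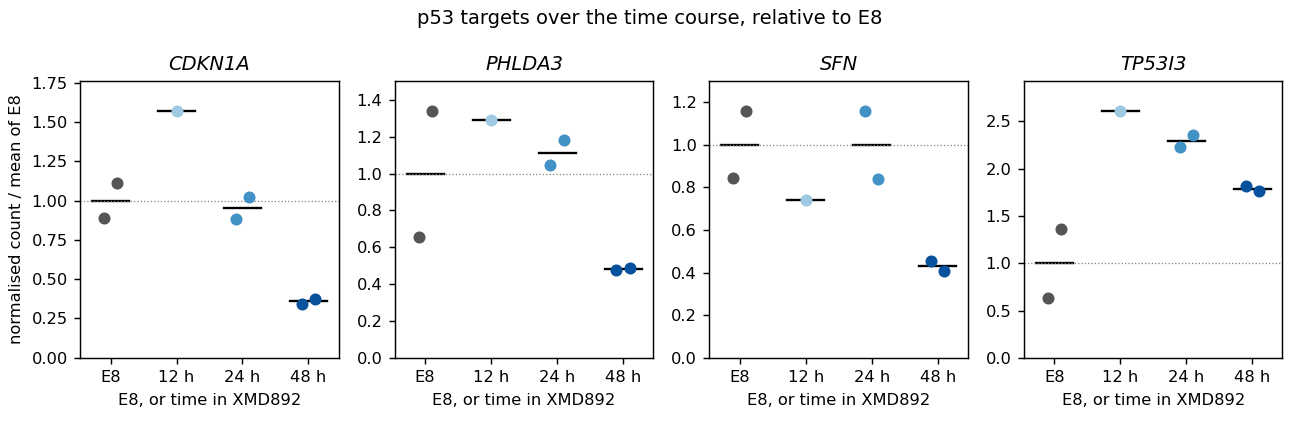
Normalised read count divided by the E8 mean (y axis, from 0) of CDKN1A, PHLDA3, SFN and TP53I3 in each library (points; bar, group mean) in E8 and at 12, 24 and 48 h of XMD892. CDKN1A, PHLDA3 and SFN are lowest at 48 h, while TP53I3 is above E8 at each time.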

How the data were processed

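Per the labels, poly(A) RNA of H1 cells was measured in 7 libraries. Per the submitters' processing notes, the genome was hg38 and the tools were featureCounts 1.5.3, STAR, DESeq2 1.26.0 and Trimmomatic 0.36, with no roles given; the annotation, strand setting and filters are not given in the sources used here. The deposited signal values are the authors' counts of reads per gene after scaling, each library by a factor of its own (100% of values within 0.1 of a whole multiple of the library's step). Reads per library were 18528689 to 24148186 over the listed genes, and 2 columns that match no sample were not used.

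Genes with a mean of 10 or more were tested with limma 3.58.1 (R 4.3.3) on log2(value + 1), with a trended prior and 1 mean per group (3 residual and 18.4 prior degrees of freedom); the lone 12 h library is assumed to vary like the others. The script was tested on simulated data. Symbols were matched to GENCODE 29 (97.7%). Replicate numbers were not used to pair samples in the main fit. Correlations of replicate differences were -0.035 to -0.071, which cannot show whether replicates were paired. In fits without a replicate, the lone library left is likewise assumed to vary like the others.

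The 9 genes and 9 pathway lists were chosen with earlier results of these data known. The named genes are the 9, MDM4, PPM1D, up to 4 called genes of each list with the largest change at 48 h, and the 5 most like CDKN1A; DDB2, CPT1C, PPP1R15A, CCND3, VLDLR, CEBPA, CEBPB and MYC were named after their values were seen. 1 gene of the rule and of a list is not reported here. The alternatives tried were adding 0.5 or 5 before the log, testing all genes or those with a mean of 50, other scalings, GC correction, only the groups compared, robust moderation, a replicate block, leaving out each library, and edgeR 4.0.16 and DESeq2 1.42.0 on recovered counts.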

Additional observations from a re-analysis of the deposited data

Results flagged for a closer look

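A direct limma test of 48 h against 24 h of XMD892 called CDKN1A and 9 genes of the pathway lists. In that test 1.2% of all tested genes (197) were called. Differences from E8 at both times were taken against the same E8 libraries. E8 alone was harvested only at 48 h, so treatment and time in culture cannot be told apart in this comparison. The 5 given here are those among the 9 p53 targets and the list genes named by their change at 48 h; the others were CCND3, VLDLR, CEBPA, CEBPB and MYC. The difference was -1.39 for CDKN1A on the log2 scale, -1.18 for SFN and -1.20 for PHLDA3. It was -1.13 for SLC7A11 (the cystine transporter) and 2.68 for DDIT4. DDIT4 was lower than E8 at 24 h (-1.60) and higher at 48 h (1.09). On 6 libraries neither edgeR nor DESeq2 called SFN or PHLDA3 between 24 h and 48 h. CDKN1A and DDIT4 were called in each of the 4 fits that left out a library of these groups, SFN and SLC7A11 in 1 of 4, and PHLDA3 in 2 of 4.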

How the results depend on the processing

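No result reversed; a direction was read only where a call was made in at least 1 of the 2 fits compared. Of the values for single genes, 4223 kept their side of the threshold, 171 lost the call and 98 gained it. With each replicate left out in turn, the calls among the 8 tested of the 9 genes ranged from 2 to 6 at 48 h (6 with all libraries), 1 to 3 at 24 h (2), 1 to 2 at 12 h (1), 1 to 1 between 24 h and 48 h (1) and 0 to 0 between 12 h and 24 h. The same range for genes of the pathway lists was 15 to 54 at 48 h (29), 10 to 62 at 24 h (25), 9 to 33 at 12 h (13), 1 to 20 between 24 h and 48 h (9) and 0 to 9 between 12 h and 24 h (0). Over all 16351 tested genes it was 751 to 4038 at 48 h, 1110 to 4903 at 24 h, 996 to 2931 at 12 h, 57 to 1046 between 24 h and 48 h and 31 to 739 between 12 h and 24 h.

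On recovered counts without 48 h replicate 2, chosen after seeing the data, edgeR called 3 of the 9 genes and 15 list genes at 48 h and 3 list genes between 24 h and 48 h. DESeq2 called 3 and 9 at 48 h, 1 of the 9 genes at 24 h, 0 at 12 h and 3 list genes between 24 h and 48 h. CDKN1A was kept by both at 48 h against 24 h (adjusted p = 0.025 with edgeR and 0.042 with DESeq2), while TP53I3 at 48 h was not (0.083 and 0.57). The tests on counts of all 7 libraries were not run, since the step of 48 h replicate 2 was too near 1 to show whole reads.

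The pathway lists held 154 tested genes. Over all tested genes the number of calls also moved from setting to setting. No such share is set beside the list counts of this and the preceding paragraph, so they are descriptions only. With the GC trend removed, list calls were 43 at 48 h, 23 at 12 h and 1 between 12 h and 24 h. Also without E8 replicate 2 they were 45 at 48 h, 29 at 12 h, 15 between 24 h and 48 h and 3 between 12 h and 24 h, and without E8 replicate 1 they were 16 and 3 in the last 2 comparisons. With only the groups compared they were 8 at 12 h, 19 between 24 h and 48 h and 24 between 12 h and 24 h, where 1 of the 9 genes (CDKN1A) was then called. The replicate block gave 6, 2, 1, 1 and 0 calls among the 9 genes, as without it, and with the GC trend removed 21 list calls at 12 h; the cause was not tested. With 2 mismatches allowed per half-site, 5 genes held a p53 site in place of 1, as did 19.7% of all windows. The planned scan of wider regions was not run. The 2 libraries a group, or 1, limit the precision, and low values such as those of GDF15 and FAS rest on few reads.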
